A study of Rattus norvegicus with 6 samples.

Results

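The genes described here encode subunits of the proteasome and of the complexes that bind it. They were measured in cultured rat cortical cells given a Math2 expression vector or a control vector. Members were taken by name, as probe sets whose single platform symbol starts with Psma, Psmb, Psmc, Psmd or Psme followed by a number. Psmb8 and Psmb9 were left out. The rule found 53 probe sets of 39 genes among 31042 probe sets that are not controls, 14 of them core genes (Psma, Psmb) and 25 regulatory genes (Psmc, Psmd, Psme). Another 6 probe sets carried a matching symbol beside other symbols and were not used, so Psmb6 and Psme3 are not analysed here. By the letter of the rule, 2 of the regulatory genes, Psmc3ip and Psme3ip1, are members although they are named for proteins that bind a subunit. Math2, now called Neurod6, is a neuronal transcription factor of the basic helix-loop-helix (bHLH) family. In the Math2 group, primary cortical cells from rat brain received 13.3 µg of a Math2 expression vector per dish, and in the control group the same amount of a control vector. All dishes, control dishes included, also received 2.7 µg of a vector for the surface receptor LNGFR. Cells that displayed it were separated magnetically 24 h after transfection, so the RNA is from a mixed culture enriched for transfected cells. Dishes of 10 cm, 10% serum and 50 ng of total RNA are given for every sample. For age, strain and vector promoters the sources used here state nothing. There were 3 control and 3 Math2 arrays (Affymetrix Rat Genome 230 2.0), numbered 1 to 3 in each group. Whether these are separate cultures is not stated, so p-values measure only the spread among these arrays, and that spread may be technical.

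The proteasome degrades proteins that carry a chain of ubiquitin, and in neurons it takes part in the turnover of synaptic and signalling proteins. Its core particle (20S) is a barrel of stacked rings. The outer rings consist of Psma products (alpha subunits), which gate the entry, and the inner rings of Psmb products (beta subunits), some of which hold the cutting sites. The regulatory particle (19S) caps the barrel. Its base holds ATPases (Psmc products) that unfold substrates, and its lid removes ubiquitin. Other caps, made of Psme products, open the barrel without ATPases. Subunits are needed in fixed proportions, and their genes are known to be transcribed in a coordinated way in many cell types.

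Values are linear MAS5 signals. Array medians ran from 102 to 120. Log2 values are log2(signal + 7.42), and a log2 difference is Math2 minus control on that scale. Hybridization spike-ins had geometric means of 2312 ± 366 on the control arrays and 4897 ± 1626 on the Math2 arrays (SD, n = 3; exact permutation p = 0.1, two-sided and the smallest possible). The 187 probe sets in the brightest 1% had a median log2 difference of 0.43, which was -0.0046 after quantile normalization, a step that gives all arrays 1 common distribution of values. The probe set of Neurod6, the transfected gene, measured 386, 207 and 973 on control arrays 1 to 3 and 312, 167 and 1546 on Math2 arrays 1 to 3. It is unknown whether the probe set covers the transfected sequence, so these signals are no check of the labels. Of the listed markers, 11 of 13 for neurons, 8 of 11 for astrocytes and 7 of 7 for neural progenitors and dividing cells were bright enough to be tested. The same held for 9 of 11 for fibroblasts and meningeal cells, 5 of 10 for the oligodendrocyte lineage and 3 of 8 for endothelial cells. For microglia and macrophages it was 1 of 12, of which 10 lay below every array median on all arrays. No gene of the 7 cell type lists passed the limma test used below, and 3 of the 44 tested reached an unadjusted p of 0.05. Over all tested probe sets 594 of 18625 did. Fgfr3 (astrocyte list) had a log2 difference of -0.57. Pdgfrb (fibroblast list) had 1.77, from mean signals of 51.7 in control and 200 in Math2 arrays. Aldh1a2 (fibroblast list) had -0.98, from 101 in control and 45.4 in Math2 arrays. For Pdgfrb and Aldh1a2 the lower group mean was under 59.8, the lowest mean signal of any tested probe set. Both were therefore tested through their higher group, and the size of their differences is uncertain. Of the 9 fibroblast and meningeal markers tested, 8 had a negative difference (median -0.25), against 10108 of all 18625 tested probe sets. Negative differences numbered 3 of 11 for neurons, 5 of 8 for astrocytes and 5 of 7 for neural progenitors and dividing cells. They numbered 4 of 5 for the oligodendrocyte lineage, 3 of 3 for endothelial cells and 0 of 1 for microglia and macrophages. The part of these cells in the results was not tested.

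No proteasome gene passed the test of Math2 against control. All 39 genes, by 49 of the 53 probe sets, were bright enough to be tested, and limma called 0 of the 49 at an adjusted p of 0.05 (Benjamini-Hochberg over 18625 tested probe sets, of which it called 0%; smallest adjusted p among members 1.00). With the replicate number as a block it also called 0 members (smallest adjusted p = 0.323), against 0.0161% of all tested probe sets called higher and 0% called lower. At an unadjusted p of 0.05, 3 member probe sets were higher (6.12%, background 1.75%) and 1 was lower (2.04%, background 1.44%). The 3 higher ones, of Psma6, Psmb4 and Psmd14, lay in the brightest 1% of tested probe sets, of which 186 of 187 were higher. The background is therefore not matched to their brightness. With the block the counts were 4 (8.16%, background 3.78%) and 1 (2.04%, background 3.92%), and with quantile normalization 0 (background 1.28%) and 1 (2.04%, background 1.31%). The 4 with the block include a dim Psmb5 probe set, 1385532_x_at, with mean signals of 55.3 in control and 116 in Math2 arrays. Its control mean was under 59.8, the lowest mean signal of any tested probe set, so it was tested only through its Math2 signals. Of the genes, each taken by its brightest probe set, 21 had a positive and 18 a negative difference, with a median of 0.0085 and a range from -0.34 to 0.50. The median over all tested probe sets was -0.031. The 95% intervals of the difference lay within a 2-fold change in either direction for 37 of 39 genes, the exceptions being Psmb10 and Psmd3. In these bulk samples, fewer cells of a type and less RNA per cell cannot be told apart.

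**Figure D1:**
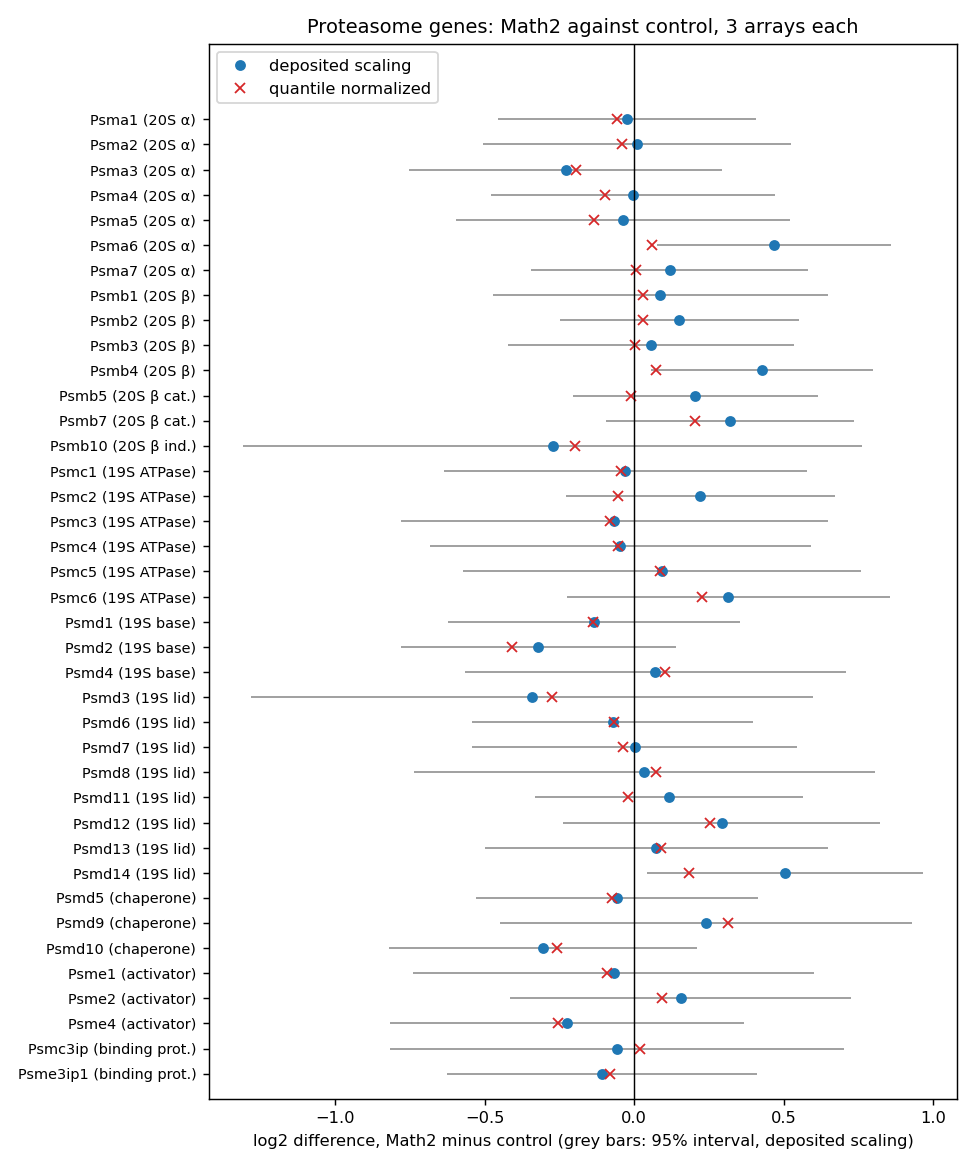
Log2 difference (Math2 minus control, 3 arrays each) of the 39 proteasome genes, with dots for the deposited scaling, grey bars for its 95% interval (limma) and crosses for quantile-normalized values; genes are ordered by role. All but 3 intervals (Psma6, Psmb4 and Psmd14) cross 0, and the crosses of those 3 genes lie closer to 0 than their dots.

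The arrays that share number 2 carried the highest proteasome signals in both groups. For 29 of 39 genes (74.4%) the mean of the arrays numbered 2 was above the means of numbers 1 and 3, compared with 39.2% of all tested probe sets. Psmc3, an ATPase of the regulatory base, measured 1605, 3571 and 2931 on control arrays 1 to 3 and 2400, 3268 and 1864 on Math2 arrays 1 to 3. Psmc5, another of these ATPases, measured 1598, 3707 and 2715, then 2516, 3169 and 2450. Psma5, an alpha subunit, measured 4373, 6391 and 6192, then 5085, 7451 and 4217. In each of the 3 the arrays numbered 2 were the highest of their group, and the groups overlapped. Taken within each group, number 2 was highest in both for 21 of 39 genes (53.8%), against 20.2% of all tested probe sets. Among the 3725 probe sets of brightness deciles 9 and 10 (10 the brightest), where 34 of the 39 genes lie, that share was 16.1%. With quantile normalization it held for 24 of 39 genes (61.5%), against 18.7% of all tested probe sets.

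The pattern was shared by both parts of the complex. Number 2 was highest in both groups for 7 of 14 core and 14 of 25 regulatory genes. The median deviation of the 39 genes from their own means was -0.21, 0.21 and -0.064 (log2) on control arrays 1 to 3 and 0.019, 0.28 and -0.23 on Math2 arrays 1 to 3. Over all tested probe sets these medians lay between -0.049 and 0.057. Control array 1 was the lowest array for 16 genes and Math2 array 3 for 11, while control array 2 was the highest for 10 and Math2 array 2 for 15. As a share of a gene's total sum of squares over the 6 arrays (5 degrees of freedom), the replicate number (2 degrees of freedom) took a median of 63.2% for proteasome genes and 55.5% over all tested probe sets. The vector (1 degree of freedom) took 7.27% and 9.74%. What a number stands for is not stated. Genes are not independent replicates, so these shares are descriptions. Gapdh is probed at both ends of its transcript, and a high ratio of 3' to 5' signal means that fewer labelled copies were full length. This ratio was 13.8, 3.74 and 5.04 on control arrays 1 to 3 and 8.48, 6 and 8.14 on Math2 arrays 1 to 3, lowest at number 2 in both groups. The same ratio for beta-actin was 22.7, 11 and 13.5, then 14.3, 17.1 and 18.4, lowest at number 2 in the control group and at number 1 in the Math2 group. The part of these ratios in the pattern was not tested.

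**Figure D2:**
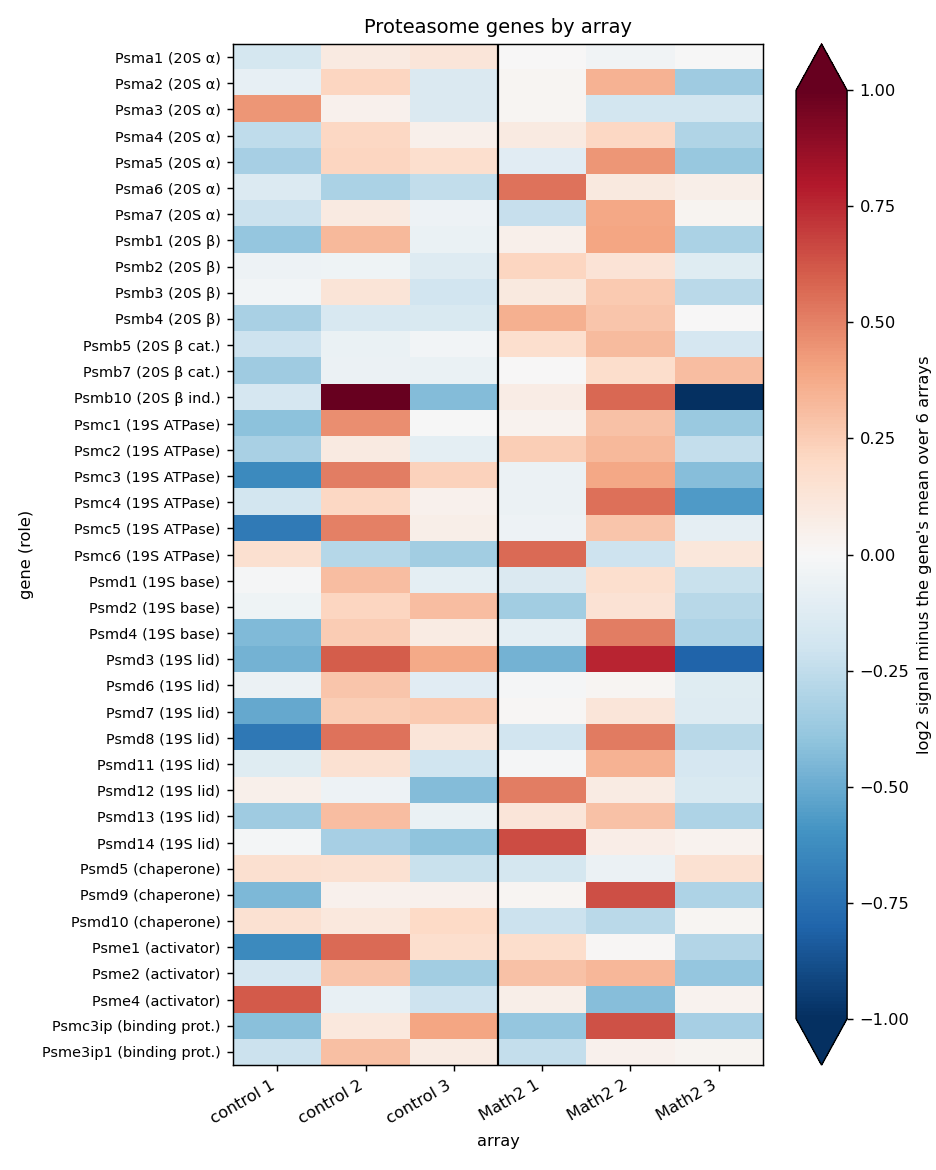
Log2 signal of the 39 proteasome genes (rows, ordered by role) on the 6 arrays (columns), as the deviation from the gene's mean over the arrays; red is above and blue below that mean, and values beyond 1 in either direction are drawn at the end of the scale. The columns of control array 2 and Math2 array 2 are mostly red, and those of control array 1 and Math2 array 3 mostly blue.

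Number 1 was highest in both groups for 6 of 39 genes (15.4%), close to the 14.2% of all tested probe sets and below the 24.3% of deciles 9 and 10. Psmc6, another base ATPase, measured 5571, 4081 and 3904 in control and 7367, 4313 and 5370 in Math2 arrays. Psme4, the activator known as PA200, measured 4057, 2517 and 2291, then 2751, 1965 and 2703 by its brightest probe set. In Psmc6 both arrays numbered 1 were clearly the highest of their group, whereas in Psme4 Math2 arrays 1 and 3 lay close together. Because the arrays of a group differ this much, the sign of a small difference depends on which arrays are used. The Math2 minus control difference was positive in 30 of 39 genes (76.9%) between the arrays numbered 1, in 22 (56.4%) between those numbered 2 and in 11 (28.2%) between those numbered 3, against 47.9%, 51.3% and 45.5% of all tested probe sets. Without Math2 array 2, 5 of 14 core and 5 of 25 regulatory genes were positive. Without control array 2, 13 and 19 were.

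**Figure D3:**
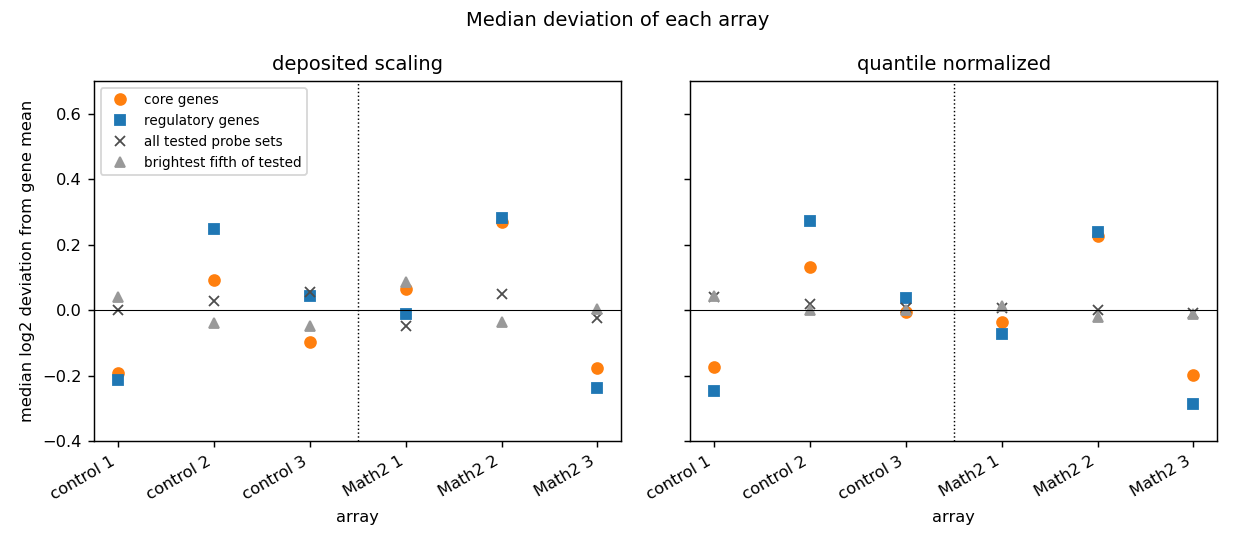
Median log2 deviation from the gene mean on each array for core genes, regulatory genes, all tested probe sets and brightness deciles 9 and 10, with the deposited scaling (left) and after quantile normalization (right). Core and regulatory genes lie above 0 on both arrays numbered 2 and below 0 on control array 1 and Math2 array 3 in both panels, while the medians over all tested probe sets stay near 0.

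Promoters are shown for genes of both kinds. The windows run from 250 bases before to 50 after the annotated start (RefSeq, GRCr8) and were found for 35 of the 39 genes. Psma5 and Psmc3 are shown because number 2 was highest in both groups, Psma6 and Psmb4 because they were among the genes with the smallest p, and Psme4 because one of its probe sets had the smallest p of all members. Each is written 5′ to 3′ on the gene's strand, and capitals mark matches on either strand to CCAAT (the box of the factor NF-Y), to TGACNNNGC or the variant TGATNNNGC (cores of the antioxidant response element that NFE2L1 and NFE2L2 bind) or to CAGATG, to CATATG and to CAGCTG, which are E-boxes that bHLH factors such as Math2 bind. Capitals run together where matches overlap, as in Psma5.
Psma5 (chr2:198584255-198584554, plus strand): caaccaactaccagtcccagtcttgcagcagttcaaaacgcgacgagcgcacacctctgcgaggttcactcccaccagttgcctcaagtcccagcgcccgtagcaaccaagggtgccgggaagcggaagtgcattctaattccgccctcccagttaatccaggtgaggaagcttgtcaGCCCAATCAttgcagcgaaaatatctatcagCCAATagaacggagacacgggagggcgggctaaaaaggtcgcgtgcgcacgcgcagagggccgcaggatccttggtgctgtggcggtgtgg
Psmc3 (chr3:97487393-97487692, plus strand): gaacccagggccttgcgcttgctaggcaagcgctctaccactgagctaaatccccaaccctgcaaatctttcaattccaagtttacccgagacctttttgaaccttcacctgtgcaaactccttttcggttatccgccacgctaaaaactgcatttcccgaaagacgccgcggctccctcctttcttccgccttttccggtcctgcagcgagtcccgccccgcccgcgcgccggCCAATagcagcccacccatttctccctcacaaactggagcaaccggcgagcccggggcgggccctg
Psma6 (chr6:78514097-78514396, plus strand): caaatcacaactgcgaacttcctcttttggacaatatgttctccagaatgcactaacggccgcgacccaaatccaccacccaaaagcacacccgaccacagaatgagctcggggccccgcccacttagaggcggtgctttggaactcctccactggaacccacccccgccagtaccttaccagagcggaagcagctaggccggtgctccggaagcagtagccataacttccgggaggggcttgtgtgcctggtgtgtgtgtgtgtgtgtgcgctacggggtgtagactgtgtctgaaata
Psmb4 (chr2:185134512-185134811, minus strand): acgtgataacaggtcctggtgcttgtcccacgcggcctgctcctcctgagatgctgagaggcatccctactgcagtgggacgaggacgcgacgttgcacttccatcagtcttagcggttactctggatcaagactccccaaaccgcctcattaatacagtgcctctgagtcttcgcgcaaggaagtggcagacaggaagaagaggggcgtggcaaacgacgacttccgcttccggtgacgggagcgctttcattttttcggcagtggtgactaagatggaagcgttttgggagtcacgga
Psme4 (chr14:108706393-108706692, plus strand): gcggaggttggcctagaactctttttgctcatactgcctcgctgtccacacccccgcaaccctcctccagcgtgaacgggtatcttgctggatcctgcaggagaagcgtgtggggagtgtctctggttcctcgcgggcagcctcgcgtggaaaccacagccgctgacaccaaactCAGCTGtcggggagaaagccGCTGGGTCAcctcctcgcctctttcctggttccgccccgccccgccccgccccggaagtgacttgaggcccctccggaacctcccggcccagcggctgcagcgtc

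In these windows Psma5 has 2 CCAAT matches, 1 of which overlaps a TGATNNNGC match, and Psmc3 has 1 CCAAT match. Psma6 and Psmb4 hold none of the 6 motifs, and Psme4 holds 1 TGACNNNGC and 1 CAGCTG. Over the 35 promoters, CCAAT was found in 18 (51.4%), against 37.5% of all 33469 promoters of that length in the table. One or both response element cores were found in 11 (31.4% against 19%). The E-box CAGATG was found in 4 promoters (11.4% against 16.6%). CATATG was found in 0 of 35 (4.11% of all promoters). For CAGCTG the count was 7 (20% against 15.1%). CCAAT was present in 10 of 19 promoters of genes that were highest at number 2 in both groups and in 8 of the other 16. For 1 or both response element cores these counts were 4 of 19 and 7 of 16. They were 3 and 1 for CAGATG, and 3 and 4 for CAGCTG. A match is a description of the letters and says nothing about binding in these cells.

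The Math2 minus control differences of core and regulatory genes lay close together, and the gap between them depended on the scaling. Core genes had a median log2 difference of 0.071, with 9 of 14 positive, and regulatory genes of -0.030, with 12 of 25 positive. After quantile normalization the medians were -0.0048, with 7 of 14 positive, and -0.044, with 10 of 25 positive. Per array, the mean log2 signal of the core genes minus that of the regulatory genes was 0.94, 0.78 and 0.79 on control arrays 1 to 3 and 0.96, 0.90 and 0.89 on Math2 arrays 1 to 3. Only its change between arrays is read here, since signals of different probe sets are not comparable as levels. Control array 1 lay among the Math2 arrays and the groups overlapped, while within the pairs of arrays numbered 1, 2 and 3 Math2 was higher by 0.015, 0.12 and 0.10. The group means were 0.84 ± 0.094 and 0.92 ± 0.037 (SD, n = 3), a change of 0.080. With quantile normalization the arrays gave 0.98, 0.82 and 0.82, then 0.87, 0.85 and 0.89, and the change was -0.0038, with pair differences of -0.11, 0.031 and 0.071. No test was run on these summaries.

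Core genes lay more often among the brightest probe sets, where differences were higher. Of the core genes 12 of 14 lay in brightness decile 10, the brightest,, and of the regulatory genes 11 of 25. All 1863 probe sets of that decile had a median log2 difference of 0.10, and the 23 proteasome genes in it had 0.12. There was no steady rise below it: the medians of all probe sets went from 0.017 in decile 1 down to -0.082 in decile 7. In decile 9 the medians were -0.041 for all probe sets and -0.067 for its 11 proteasome genes. After quantile normalization the medians of decile 10 were -0.011 and -0.012. With either scaling the proteasome genes of decile 10 lay close to the median of all probe sets of that brightness.

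**Figure D4:**
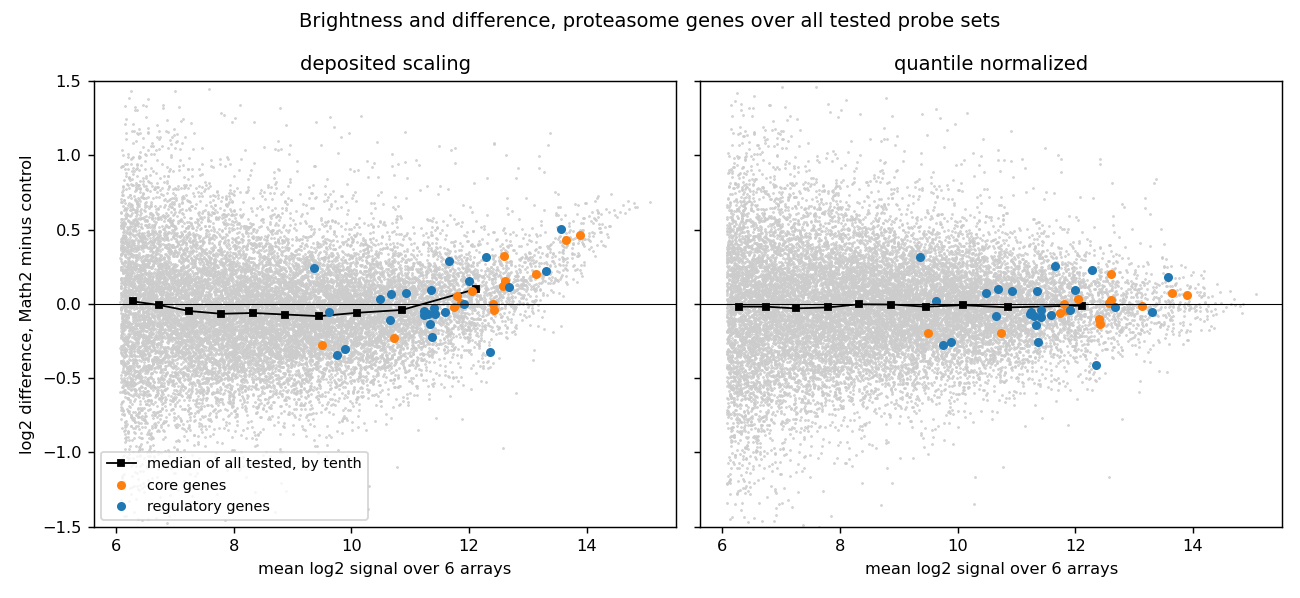
Log2 difference (Math2 minus control) against mean log2 signal over 6 arrays for all tested probe sets (grey; values beyond 1.5 in either direction not drawn), their medians by decile of brightness (black), core genes (orange) and regulatory genes (blue), before and after quantile normalization. With the deposited scaling the medians lie near or below 0 over most of the range and above it in decile 10, and the 3 brightest proteasome genes lie among the brightest probe sets, which are above 0; after quantile normalization the black line is flat.

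Among the alpha subunits, which form the gated outer rings, 3 of 7 had a positive difference and 1 stood apart in size. Psma6 measured 13815, 12219 and 12852 on the control arrays and 22118, 16287 and 15890 on the Math2 arrays. Every Math2 array was above every control array, and Math2 array 1 was the highest. The log2 difference was 0.47 (SE 0.177, 1.38-fold on the log2(signal + 7.42) scale; unadjusted p = 0.0239, limma adjusted p = 1.00). It was 0.25 with cyclic loess and 0.060 with quantile normalization. Psma3 measured 2307, 1743 and 1530, then 1715, 1492 and 1490, a difference of -0.23 (SE 0.237) that was negative in all 3 numbered pairs. Control array 1 was its highest, and the lowest control array lay inside the Math2 range. Without control array 1 the difference was -0.064. The others were small, with log2 differences of -0.023 for Psma1, 0.0085 for Psma2, -0.0036 for Psma4, -0.038 for Psma5 and 0.12 for Psma7.

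All 4 non-catalytic beta genes had a positive difference, with a median of 0.12, or 0.030 after quantile normalization. Psmb4, whose promoter is shown above, measured 10223, 11469 and 11558 in control and 16414, 15579 and 12891 in Math2 arrays. The groups did not overlap. Its log2 difference was 0.43 (SE 0.167, 1.34-fold on that scale; unadjusted p = 0.0278, limma adjusted p = 1.00), 0.23 with cyclic loess and 0.072 with quantile normalization. Psmb2 measured 6020, 6037 and 5692, then 7233, 6837 and 5729, so that Math2 array 3 fell among the controls, and its difference was 0.15 (SE 0.181), or 0.082 without Math2 array 1. Psmb1 and Psmb3 had differences of 0.087 and 0.055.

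The catalytic beta subunits cut the substrate, Psmb5 after hydrophobic residues (chymotrypsin-like) and Psmb7 after basic ones (trypsin-like). Psmb7 measured 4850, 5946 and 5935 on the control arrays and 6207, 6991 and 7670 on the Math2 arrays. It was 1 of 4 genes whose Math2 arrays all lay above the control arrays, with Psma6, Psmb4 and Psmd14 (4 of 39 genes; background 3.70% of tested probe sets). Because Psma6, Psmb4 and Psmd14 lie in the brightest 1%, this background is not matched to their brightness. The log2 difference of Psmb7 was 0.32 (SE 0.187; unadjusted p = 0.117, limma adjusted p = 1.00). With quantile normalization it was 0.20, the largest among core genes' brightest probe sets. Psmb5 measured 7780, 8558 and 8807, then 10074, 11170 and 7976. Math2 array 3 lay within the control range. Its difference was 0.20 (SE 0.185), -0.012 with quantile normalization and 0.099 without Math2 array 2.

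Psmb10 encodes the interferon-inducible subunit that takes the place of Psmb7 in the immunoproteasome, a form that favours peptides for antigen presentation. It measured 638, 1448 and 529 on the control arrays and 754, 1073 and 340 on the Math2 arrays. The arrays numbered 2 were the highest and those numbered 3 the lowest of each group, a spread wider than the shift between the groups. The log2 difference was -0.27 (SE 0.468, 95% interval -1.31 to 0.76), and the replicate number took 88.2% of its sum of squares. Leaving out control array 2 gave 0.16, and leaving out Math2 array 3 gave 0.19.

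**Figure D5:**
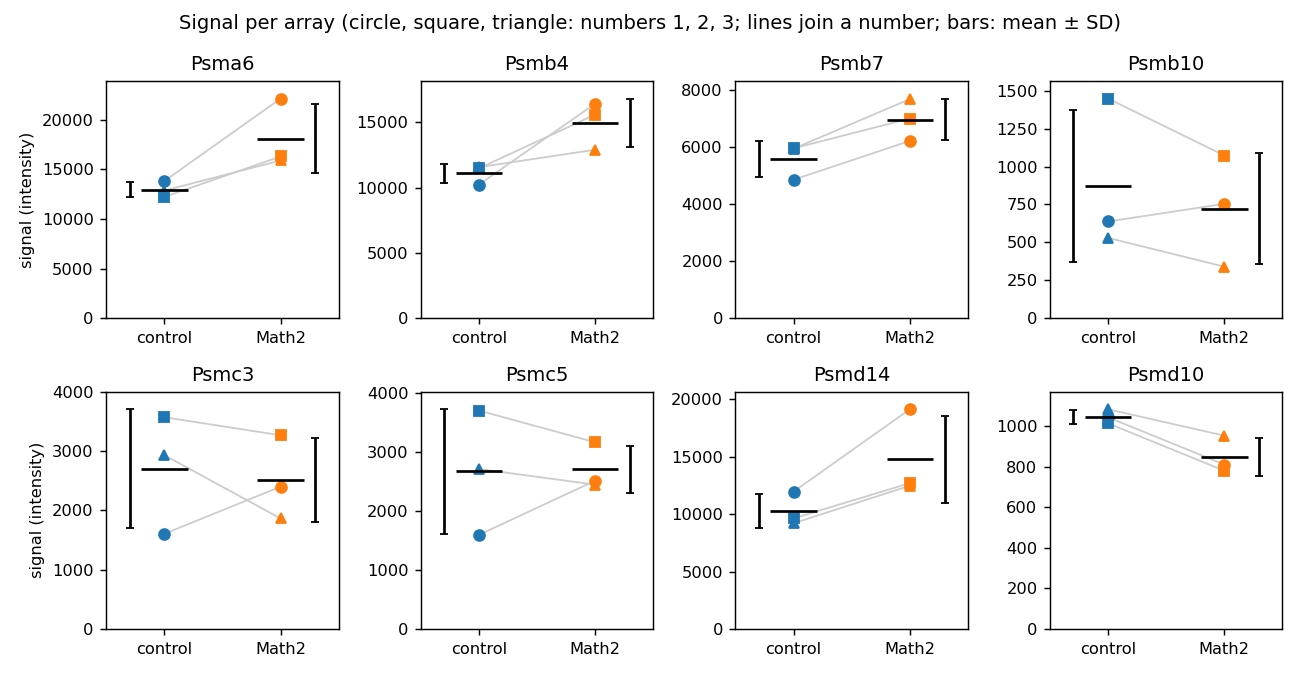
Signal (intensity, linear axis from 0) of 8 proteasome genes on each array; circles, squares and triangles are the arrays numbered 1, 2 and 3, grey lines join arrays of the same number, black lines are group means and side bars the mean ± SD (n = 3). Psma6, Psmb4, Psmb7 and Psmd14 lie higher on all Math2 arrays and Psmd10 lower, while in Psmb10, Psmc3 and Psmc5 the spread within a group exceeds the shift between groups.

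The base ATPases form the ring that unfolds substrates and threads them into the core. Their 6 genes had a median difference of 0.032, with 3 positive, and all 6 were higher between the arrays numbered 1. Psmc2 measured 8122, 10802 and 9521 in control and 12027, 12758 and 8620 in Math2 arrays. Math2 arrays 1 and 2 were above all controls and Math2 array 3 among them. Its log2 difference was 0.22 (SE 0.204), -0.056 with quantile normalization and 0.11 without Math2 array 2. Psmc6, with the signals given above, had 0.31 (SE 0.244) and was positive in 3 of 3 pairs. Leaving out Math2 array 1 gave 0.11, and leaving out Math2 array 2 gave 0.50. Differences were -0.030 for Psmc1, -0.067 for Psmc3, -0.048 for Psmc4 and 0.093 for Psmc5, each smaller than its SE (0.274 to 0.323).

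Of the remaining base subunits, Psmd2 and Psmd1 form the scaffold on which ubiquitin receptors and shuttle factors dock. Psmd2 measured 5079, 6058 and 6483 on the control arrays and 4117, 5769 and 4306 on the Math2 arrays. Math2 array 2 lay among the controls. Its log2 difference was -0.32 (SE 0.208; unadjusted p = 0.152, limma adjusted p = 1.00), negative in 3 of 3 pairs, and -0.41 with quantile normalization. Psmd1 measured 2565, 3201 and 2418, then 2341, 2899 and 2208, a difference of -0.14 (SE 0.221) that was also negative in 3 of 3 pairs, with overlapping groups. It was -0.015 without control array 2 and -0.056 when Math2 array 3 was left out. Over all members, 5 of 39 genes were negative in all 3 pairs (12.8%, background 15.2%) and 8 were positive in all 3 (20.5%, background 13.1%). Psmd4, a ubiquitin receptor, had 0.070.

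The lid takes ubiquitin chains off the substrate through Psmd14, a metalloprotease. Its brightest probe set measured 11961, 9631 and 9204 in control and 19136, 12700 and 12475 in Math2 arrays. All Math2 arrays were above all controls, and the arrays numbered 1 were the highest of each group. The log2 difference was 0.50 (SE 0.209, 1.42-fold on that scale; unadjusted p = 0.0350, limma adjusted p = 1.00, and 0.421 with the replicate block), the largest among the genes' brightest probe sets. With cyclic loess it was 0.32 and with quantile normalization 0.18, and without Math2 array 1 it was 0.30. Psmd12 measured 3342, 3120 and 2390, then 4601, 3427 and 2906, a difference of 0.29 (SE 0.240) that was positive in 3 of 3 pairs although the groups overlapped, and that was 0.11 without Math2 array 1. Psmd3 had the largest negative difference, -0.34 (SE 0.424), and its signals of 615, 1311 and 1114, then 615, 1459 and 489, varied more within each group than between them. Of the others, Psmd6 had -0.073, Psmd8 0.033, Psmd11 0.12 and Psmd13 0.074. Psmd7 had mean signals of 3977 ± 1103 and 3872 ± 330 (SD, n = 3).

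Psmd5, Psmd9 and Psmd10 are chaperones that help to assemble the base and are not part of the finished particle. Psmd10, also known as gankyrin, measured 1045, 1015 and 1085 on the control arrays and 812, 781 and 954 on the Math2 arrays. It was the only gene by its brightest probe set with every Math2 array below every control array (1 of 39; background 4.30%). The log2 difference was -0.31 (SE 0.233; unadjusted p = 0.216, limma adjusted p = 1.00), and -0.26 with quantile normalization. Psmd9 measured 471, 668 and 669, then 657, 1016 and 522, with Math2 array 2 high and a difference of 0.24 (SE 0.311). It was -0.022 without that array. Psmd5 had -0.058.

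The activators open the core without ATPases. Psme1 and Psme2 form the interferon-inducible cap PA28. Psme1 measured 1757, 4063 and 3077 in control and 3097, 2751 and 2236 in Math2 arrays, all Math2 arrays lying inside the control range, with a difference of -0.069 (SE 0.303). Psme2 measured 3654, 4968 and 3222, then 5008, 5152 and 3130. Its groups overlapped and the difference was 0.15 (SE 0.257), or 0.021 without control array 3. Together with Psmb10 these are the interferon-inducible members, and none of the 3 reached an unadjusted p of 0.05 (0.560 to 0.825). Psme4, a nuclear activator, had -0.23 (SE 0.267) by its brightest probe set. It was 0.026 without control array 1.

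Probe sets of 1 gene did not always move alike, and 7 genes had more than 1 tested. A dimmer Psme4 probe set, 1387345_at, singled out after its values were seen, measured 386, 557 and 458 on the control arrays and 194, 288 and 235 on the Math2 arrays. The groups did not overlap. Its log2 difference of -0.95 (SE 0.296, 0.519-fold on that scale) had the smallest unadjusted p of all 49 member probe sets (0.00897; limma adjusted p = 1.00, and 0.323 with the replicate block), and it was -0.89 with quantile normalization. The third Psme4 probe set, 1368818_at, had -0.080 (SE 0.402), from signals of 1709, 574 and 826 in control and 1003, 599 and 1143 in Math2 arrays. The 3 estimates are negative but differ in size. That of 1368818_at was positive in 2 of 3 numbered pairs, and that of the brightest probe set was 0.026 without control array 1. A shared sign is therefore not shown. For Psmd14 the other probe sets had 0.48 and -0.15, and for Psmc6 0.29 and -0.037. Psmd9 had 0.24 and -0.22, and Psmd11 0.12 and -0.021. A second Psmd7 probe set had 0.17. The dim Psmb5 probe set 1385532_x_at, at 55.3 ± 27.8 and 116 ± 44.1 (SD, n = 3), had a difference of 0.99 (SE 0.450). Its control mean lay below every array median, so the size is uncertain. The 4 untested probe sets, of Psmb5, Psmc4, Psmd11 and Psme1, did not exceed a signal of 115.

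The genes named for subunit-binding proteins are not proteasome subunits. Psmc3ip, a cofactor of homologous recombination, measured 585, 843 and 1029, then 595, 1219 and 620, a difference of -0.057 (SE 0.343), which was 0.018 with quantile normalization. Psme3ip1, which binds the nuclear activator subunit Psme3, measured 1379, 1969 and 1694, then 1357, 1651 and 1637, with -0.11 (SE 0.235). Both sets of groups overlapped.

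Other genes of the pathway were read from lists of assembly factors, bound enzymes, ubiquitin conjugation, shuttle factors and transcription factors. Of 36 tested, the difference was positive in 19 and negative in 17 (median 0.010), and limma called 0 with or without the block. An unadjusted p of 0.05 (limma) was reached by 1 of them, against 594 of all 18625 tested probe sets. The arrays numbered 2 had the highest mean in 14 of the 36 (38.9%), close to the 39.2% of all tested probe sets. Txnl1, a thioredoxin-like protein bound to the lid, measured 10400 ± 1490 and 14800 ± 3430 (SD, n = 3), a difference of 0.50 that was 0.15 with quantile normalization. Adrm1, a ubiquitin receptor of the base, measured 326 ± 76.9 and 199 ± 67.5, a difference of -0.72 (SE 0.344; limma adjusted p = 1.00). Pomp, which matures the core particle, had 0.33, and Psmg2, a chaperone of the alpha ring, -0.20. Among shuttle and unfolding factors Ddi2, the protease that activates NFE2L1, had -0.52 and Nploc4, a cofactor of the Vcp segregase, -0.26. Of the transcription factors, Nfe2l2 had -0.34 and Nfya, a subunit of NF-Y, -0.30. The conjugating enzymes Ube2l3 and Ube2d1 had 0.25 and -0.34.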

How the data were processed

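Gene expression was measured on 6 arrays. The authors deposited a table of linear intensity values, made with MAS5 per the submitters' processing notes, its version and options not given in the sources used here. Trimmed by 2% at each end, the mean intensity was 500 for each of the arrays, and no further scaling was applied. Signals were transformed to log2(signal + 7.42), the pseudocount being the 10th percentile of positive values. Of 31042 non-control probe sets, the 18625 at or above the 40th percentile of mean log2 signal were tested with limma 3.58.1 in R 4.3.3 (lmFit, eBayes with an intensity trend, two-sided, Benjamini-Hochberg over all tested). The table holds no detection calls, and 3 arrays per group limit the precision. In the platform annotation 20826 probe sets carry 1 symbol, 436 carry several and 9780 carry none. All 53 member probe sets matched RefSeq (GRCr8) by gene number and 0 symbols changed.

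The probe set with the highest mean log2 signal stood for its gene. Summaries over members were described without a test. The members and lists were chosen with earlier results of these data known. Named in full are the catalytic subunits, Psmc2, Psmd14, Psme1, Psme2 and the 2 genes of each role with the smallest p, and 2 pathway genes per list; Psmc3, Psmc5, Psma5 and Psmd3 were added after their values were seen. Deviations from group means correlated at 0.326, 0.476 and 0.372 over tested probe sets for arrays that share number 1, 2 and 3, each above the limit of 0.1, so the numbers were taken to pair the arrays, from the data and not the labels. Control 1 with Math2 3 also lay above it (0.104). Over the member genes alone the pair numbered 3 reached only 0.0555, and unlike numbers reached up to 0.428, so the pairing is uncertain for these genes. Alternatives were quantile, median and cyclic loess normalization, pseudocounts of 1 and 32, no filter and a filter at the 60th percentile, the replicate block, no intensity trend, every member probe set, only 19S subunits, and leaving out arrays. Tested on simulated data for this comparison (18625 probe sets), the fit found 79% of simulated 4-fold changes and 7% of those of 2-fold, and made 9 false calls. The simulated arrays were independent, without a shared effect of the replicate number or a shift with brightness. These rates may therefore not hold for the real arrays.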

Additional observations from a re-analysis of the deposited data

How the results depend on the processing

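No member was called under any alternative run, and leaving out arrays called 0 members in each of the 9 fits. Over all tested probe sets, limma called 0 as reported, 3 with the replicate block and 5 with the replicate block and quantile normalization. Leaving out single arrays gave 0, and leaving out a numbered pair, with the block, gave 4 without pair 1, 114 without pair 2 and 15 without pair 3. The fits without a pair estimate the block as well from few arrays. Their variance is poorly estimated and their counts of calls are uncertain. The block changed no call of a member. The change in core minus regulatory signal, 0.080 as reported, was -0.0038 with quantile normalization, with or without the block, and 0.16 with every tested member probe set. That 0.16 takes in the dim Psmb5 probe set 1385532_x_at (difference 0.99), tested only through its Math2 signals, and 1387345_at of Psme4 (-0.95). Its size is therefore uncertain. Leaving out arrays gave 0.049 to 0.13. The core median ran from -0.053 to 0.20 and the regulatory median from -0.15 to 0.21 when arrays were left out.

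With quantile normalization, with or without the block, the differences of Psmb5 (-0.012), Psmc2 (-0.056) and Psmc3ip (0.018) changed sign, and with cyclic loess Psmc3ip did (0.026). Other alternatives that kept all arrays changed no sign among the 20 genes named in full. Of the other 19 genes, Psma2 (-0.042), Psmd11 (-0.020) and Psmd7 (-0.039) changed sign with quantile normalization. Among the 20 genes named in full, leaving out arrays changed the sign of Psmb10 (-0.63 to 0.19), Psmc3ip (-0.39 to 0.28), Psmd9 (-0.022 to 0.45 for single arrays, up to 0.54 for pairs), Psme1 (-0.40 to 0.20 for single arrays, -0.51 to 0.18 for pairs), Psme3ip1 (-0.24 to 0.013) and Psme4 (-0.46 to 0.026). Over all 39 genes, the positive ones numbered 10 without Math2 array 2 and 32 without control array 2, against 21 as reported. Causes were not tested. Dim probe sets have uncertain folds, since signal over background is not known here.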
